A study of Caenorhabditis elegans with 6 samples.

Results

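Tubulins are the building blocks of microtubules. The genes described here are 9 Caenorhabditis elegans tubulin genes, of 20189 protein-coding genes in the deposited count table, picked by symbol. They are the alpha tubulin genes tba-1, tba-2, tba-4 and mec-12, the beta tubulin genes tbb-1, tbb-2, tbb-4 and mec-7, and the gamma tubulin gene tbg-1. The question was whether the 6 isotypes used broadly or in the germline (tba-1, tba-2, tba-4, tbb-1, tbb-2 and tbg-1) and the 3 neuronal isotypes (tbb-4, mec-7 and mec-12) differ between larvae raised with and without cycloheximide (CHX), a blocker of translation elongation.

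All samples were whole hermaphrodites collected at L4, the last larval stage, and all shared 1 genotype: heterozygous for rpl-36A(P55Q), an allele of a large ribosomal subunit protein gene, over mIn1, a chromosome II balancer. The series title calls such ribosomes resistant to the drug. Eggs were placed on plates without CHX and collected after 2 days (no CHX, 3 samples), or on plates with 500 µg/ml CHX and collected after 3 days (CHX, 3 samples), all at 23 °C. Drug and age therefore change together and cannot be told apart here. Nothing in the labels says that the replicates were separate cultures. The p-values therefore cover the spread among these 6 samples only, which may be technical.

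Alpha and beta tubulin form the dimer that polymerizes into microtubules, and gamma tubulin, at the centrosome and other organizing sites, starts new ones. In C. elegans, TBA-1, TBA-2, TBB-1 and TBB-2 are the copies that build the spindle of the germline and early embryo, whereas MEC-7 and MEC-12 form the thick microtubules of the touch receptor neurons and TBB-4 is found in ciliated sensory neurons. In mammalian cells, tubulin messenger RNA is degraded on translating ribosomes when free tubulin is abundant. That control was not measured here.

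Libraries were shallow, with 313767 to 414781 counts in coding sequence, and 5641 genes had enough counts to be tested. Of those, 25.2% passed the test in either direction, 10.3% higher and 14.9% lower on CHX. These shares are 579 and 840 genes, and with library totals in place of TMM factors they were 851 and 605. The test was edgeR's quasi-likelihood test with Benjamini-Hochberg adjustment over all tested genes and a threshold of 0.05. Levels are CPM, counts per 1000000 counts, scaled to each library's counts in tested genes and its TMM factor, and errors are SD with n = 3 per group. In these units 3 counts, the floor used here, equal 7.22 to 10.6 CPM. All 26 of 26 germline and 15 of 15 body wall muscle marker genes were counted often enough to test, against 8 of 25 neuronal, 1 of 12 touch neuron and 1 of 27 cilium genes. At 0 in every sample were 7 of the cilium genes.

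The main finding was a change in 1 alpha isotype. Transcripts of tba-4 fell 3.35-fold on CHX, and it was the only 1 of the 6 tested tubulin genes that passed, where 25.2% of all tested genes did. The isotypes that carry most of the counts, tba-2 and tbb-2, had fitted differences close to 0, with intervals that leave out a 1.5-fold change in either direction. The share of all 9 genes in the total counts was 0.421% ± 0.0125 without CHX and 0.420% ± 0.00961 on the drug. These differ by less than the spread between replicates, but the share uses library totals. In TMM-scaled CPM the 6 broad isotypes summed to 4480 to 4819 without CHX and 4108 to 4267 on the drug. These sums did not overlap, as for the CPM of 39.7% of single tested genes. The 3 neuronal isotypes had too few counts to be tested.

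**Figure D1:**
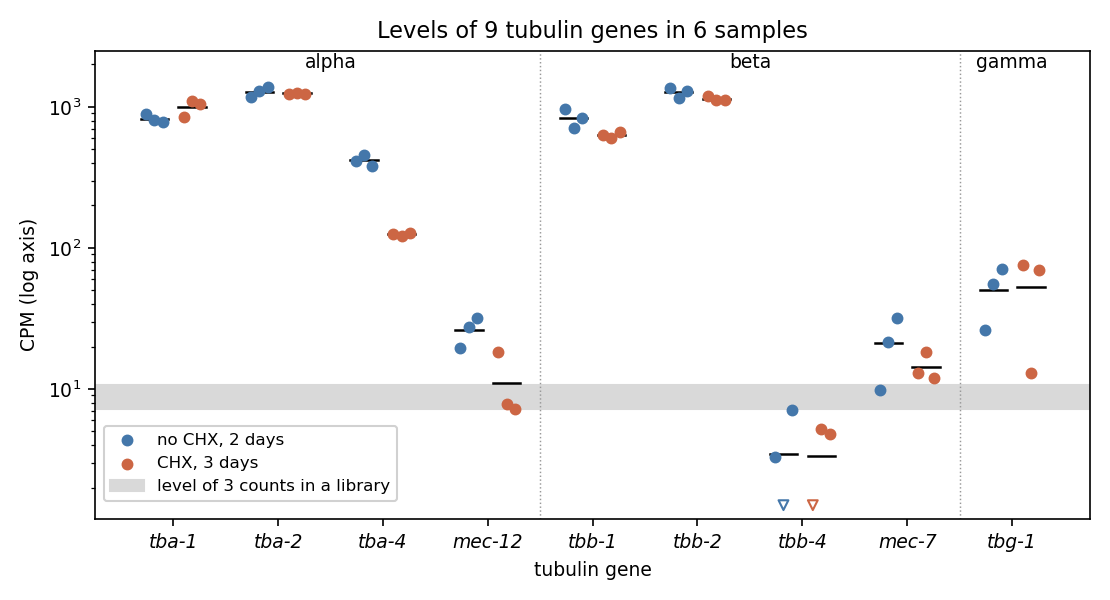
Level of each tubulin gene (CPM, log axis) in the 3 samples without CHX (blue) and the 3 with CHX (orange); black lines are group means, the grey band is the level of 3 counts and open triangles mark a count of 0. The groups are far apart for tba-4, and the neuronal genes tbb-4, mec-7 and mec-12 lie near or under the band.

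The gene tba-4 (WBGene00006530) lies on chromosome II from 10918706 to 10920202 on the plus strand in WBcel235 coordinates, with 3 coding exons and a coding length of 1344 bases, and encodes an alpha tubulin. It had 127, 150 and 108 counts in no CHX replicates 1, 2 and 3, and 48, 47 and 53 in the CHX replicates, or 416, 459 and 382 CPM against 125, 122 and 127 CPM. The groups did not overlap, as for 39.7% of all tested genes. The CHX samples lay closer to each other than those without CHX. At 47 to 53 counts, counting error is wider than that spread, so the closeness is not read as a trait of the group.

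The group means were 419 ± 38.9 and 125 ± 2.86 CPM, and the log2 fold change was -1.75 (SE 0.20, 95% interval -2.16 to -1.34, edgeR adjusted p 1.59e-07). By p it ranked at number 32 of the 5641 genes, and 2.32% of tested genes had a lower log2 fold change. Every alternative setting kept the call. The altered ribosomal gene, rpl-36.A, begins 176 kb away on the same chromosome (11096542 to 11097204), and both groups carry the same genotype there. In whole animals, fewer cells that express a gene and less of its RNA per cell cannot be told apart, which holds for every gene described.

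The alpha genes tba-1 and tba-2 are both on chromosome I, on the minus strand. For tba-1 (WBGene00006528, 9785778 to 9787624, 4 coding exons) the levels were 885, 808 and 785 CPM without CHX and 841, 1096 and 1044 CPM with it. CHX replicates 2 and 3 lay above all samples without CHX, and CHX replicate 1 lay among them. The log2 fold change was 0.27 (SE 0.14, 95% interval -0.02 to 0.56) and did not pass (edgeR adjusted p 0.173).

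With library totals in place of TMM factors, tba-1 passed as higher (log2 fold change 0.43, edgeR adjusted p 0.0226). That scaling moves the median of all tested genes from 0.02 to 0.18, a shift of 0.16. Relative to that median, tba-1 stood at 0.25 under both scalings and tba-4 at -1.76.

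The gene tba-2 (WBGene00006529, 12964679 to 12966777, 3 coding exons) had the highest level of the 9 genes in both groups. Its level was 1177, 1295 and 1382 CPM without CHX and 1235, 1254 and 1244 CPM with it. All CHX values fell inside the range of the other group. The log2 fold change was -0.05 (SE 0.13, 95% interval -0.30 to 0.21, edgeR adjusted p 0.82), and the interval in fold runs from 0.811 to 1.16.

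The beta genes tbb-1 and tbb-2 lie on chromosome III, on the minus strand. For tbb-1 (WBGene00006536, 10740868 to 10742461, 3 coding exons) the levels were 964, 704 and 827 CPM without CHX and 635, 599 and 664 CPM with it. The groups did not overlap, as for 39.7% of all tested genes. The log2 fold change of -0.39 (SE 0.15, 95% interval -0.70 to -0.09) just missed the threshold (edgeR adjusted p 0.0537, unadjusted p 0.0139). Without no CHX replicate 2, the lowest of its group, tbb-1 passed as lower (log2 fold change -0.51, edgeR adjusted p 0.0122). It was -0.27 without no CHX replicate 1 (edgeR adjusted p 0.205) and -0.23 with library totals (0.249), and over all 12 alternatives the adjusted p ran from 0.0122 to 0.249.

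For tbb-2 (WBGene00006537, 4015769 to 4017643, 4 coding exons) the levels were 1351, 1158 and 1304 CPM without CHX and 1196, 1122 and 1119 CPM with it. CHX replicate 1 lay inside the range of the samples without CHX. The log2 fold change was -0.15 (SE 0.13, 95% interval -0.41 to 0.11, edgeR adjusted p 0.419), and in fold the interval runs from 0.753 to 1.08. The sign of both tba-2 and tbb-2 turned with library totals, to 0.11 and 0.01. Relative to the median of all tested genes, tba-2 stood at -0.063 with TMM factors and -0.065 with library totals. On the same measure tbb-2 stood at -0.166 and -0.165, so neither moved against that median.

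Tubulin genes of 1 family are close in sequence, and no source used here says how reads that fit more than 1 copy were counted, so reads may be shared between copies. With tba-1 and tba-2 summed to 1 row, the log2 fold change was 0.08 (SE 0.11, edgeR adjusted p 0.614). With tbb-1 and tbb-2 summed it was -0.24 (SE 0.12, edgeR adjusted p 0.135). The value of tba-4 stayed at -1.75 in that fit.

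**Figure D2:**
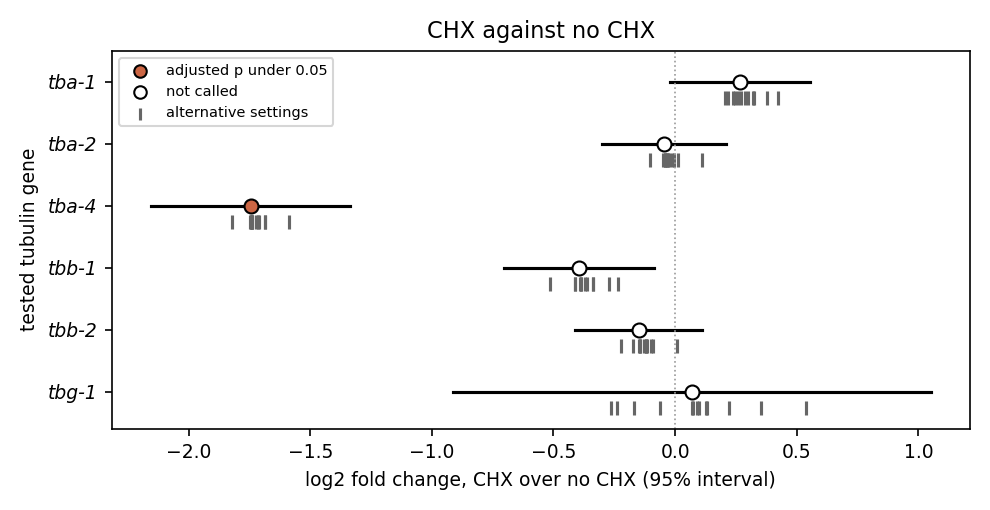
Fitted log2 fold change (CHX over no CHX) of the 6 tested tubulin genes with its 95% interval; the filled point passed the threshold, and grey ticks are the values under the alternative settings. Only tba-4, at -1.75, is far from 0. The interval of tbb-1, -0.70 to -0.09, also leaves out 0, although tbb-1 did not pass, and that of tbg-1 spans -0.91 to 1.05.

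The gamma tubulin gene tbg-1 (WBGene00006540, chromosome III, 9626532 to 9629154, minus strand, 6 coding exons) was counted far less often. It had 8, 18 and 20 counts without CHX and 29, 5 and 29 with it, or 26.2, 55.1 and 70.7 CPM against 75.7, 12.96 and 69.8 CPM. CHX replicate 2 was the lowest of all 6 samples and the other CHX samples were among the highest 3. The log2 fold change was 0.07 (SE 0.48, 95% interval -0.91 to 1.05, edgeR adjusted p 0.934).

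Without CHX replicate 2 that value was 0.54, and without CHX replicate 1 it was -0.26, with no call in either case. In fold, the interval of tbg-1 with all samples runs from 0.531 to 2.07. Changes within that range are therefore not excluded, and the data do not show that its level was steady.

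The neuronal isotypes stood at a few counts per library. The alpha gene mec-12 (WBGene00003175, chromosome III, 3131574 to 3139234, minus strand), required for touch sensation, had 6, 9 and 9 counts without CHX and 7, 3 and 3 with it. In CPM these were 19.7, 27.6 and 31.8 against 18.3, 7.78 and 7.22. The groups did not overlap, but by little, because CHX replicate 1 was close to no CHX replicate 1. The ratio of summed counts (24 and 13), scaled to library size, was 0.418, with an exact 95% interval of 0.196 to 0.855 that covers counting error only.

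When no filter on low counts was applied, mec-12 had a log2 fold change of -1.17 (SE 0.76, edgeR adjusted p 0.394), and DESeq2 gave an adjusted p of 0.403. Its gene overlaps Y53G8B.1 on the opposite strand. The use of strand in counting is not stated in the sources at hand, so reads of that pair cannot be told apart.

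The beta gene mec-7 (WBGene00003171, chromosome X, 7774859 to 7776689, minus strand), the partner of mec-12 in touch neurons, had 3, 7 and 9 counts without CHX and 5, 7 and 5 with it. The groups overlapped, with the lowest and the highest sample both in the group without CHX. The ratio of summed counts (19 and 17) was 0.691 (exact 95% interval 0.337 to 1.40). With no filter the log2 fold change was -0.47 (SE 0.76, edgeR adjusted p 0.74).

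The ciliated neuron gene tbb-4 (WBGene00006538, chromosome X, 9434452 to 9436893, minus strand) had 1, 0 and 2 counts without CHX and 0, 2 and 2 with it. No library exceeded the floor of 3 counts, so no fold is given and no difference was detectable at this depth. Together the 3 neuronal isotypes took 0.676%, 1.08% and 1.47% of the counts of all 9 genes without CHX, and 0.757%, 0.734% and 0.561% on the drug. The groups overlap, and no test was made of this share.

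Each neuronal isotype was set against a broad one through ratios of counts within a sample, which do not depend on library scaling. The ratios tba-1 over tba-2 and tbb-1 over tbb-2 compare broad isotypes with each other. Of 5 ratios, mec-12 over tba-2 and tbb-1 over tbb-2 did not overlap between groups, as for the CPM of 39.7% of single tested genes. On the log2 scale the ratio of mec-12 to tba-2 was -5.54 ± 0.22 without CHX and -6.77 ± 0.68 with it (exact two-sided permutation p 0.1, the smallest that 3 against 3 allows; 0.25 adjusted over the 5 ratios). It was lower in 3 of 3 CHX samples, but rests on 24 and 13 counts of mec-12. As a share of all alpha counts, mec-12 overlapped between groups, at 0.787%, 1.06% and 1.23% without CHX and 0.824%, 0.313% and 0.298% on the drug. The design cannot reach a p under 0.05 for any such ratio.

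The ratio of tbb-1 to tbb-2 was -0.62 ± 0.12 and -0.86 ± 0.09 on the log2 scale (exact permutation p 0.1). It too was lower in 3 of 3 CHX samples. The ratio of tba-1 to tba-2 was -0.63 ± 0.21 and -0.33 ± 0.19 (exact permutation p 0.2). That of mec-7 to tbb-2 differed between groups by -0.27, less than the spread between replicates (exact permutation p 0.6). The ratio of tbb-4 to tbb-2 is not given, because with 0 to 2 counts of tbb-4 per library it is set by the pseudocount.

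Within the alpha family the make-up of counts differed, and the following shares are descriptions with no test. The gene tba-4 supplied 16.7%, 17.7% and 14.8% of alpha counts without CHX and 5.65%, 4.91% and 5.26% with it. The Wilson 95% intervals, which cover counting error only, ran from 12.4% at the lowest to 20.4% at the highest without CHX and from 3.71% to 7.41% with it, so the groups lay apart by more than counting error. The share of tba-1 was 35.4%, 31.2% and 30.4% without CHX and 37.9%, 44.2% and 43.1% with it. Shares of a family add up to a fixed whole, so a smaller share of tba-4 by itself enlarges the other alpha shares. The ratio of tba-1 to tba-2, which leaves tba-4 out, overlapped between groups. That of tba-2 overlapped between groups, at 50.2% ± 3.23 and 52.5% ± 2.73.

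In the beta family, the share of tbb-2 was 58.0%, 61.5% and 60.1% without CHX and 64.9%, 64.3% and 62.2% with it. The groups did not overlap, but no CHX 2 (61.5%) and CHX 3 (62.2%) lay close together. Nearly all other beta counts were of tbb-1 (39.0% ± 2.14 and 35.2% ± 1.46), so the tbb-2 share mostly restates that of tbb-1. The ratio of beta to alpha counts was 0.932, 0.727 and 0.841 without CHX and 0.831, 0.703 and 0.743 on the drug, with overlap.

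**Figure D3:**
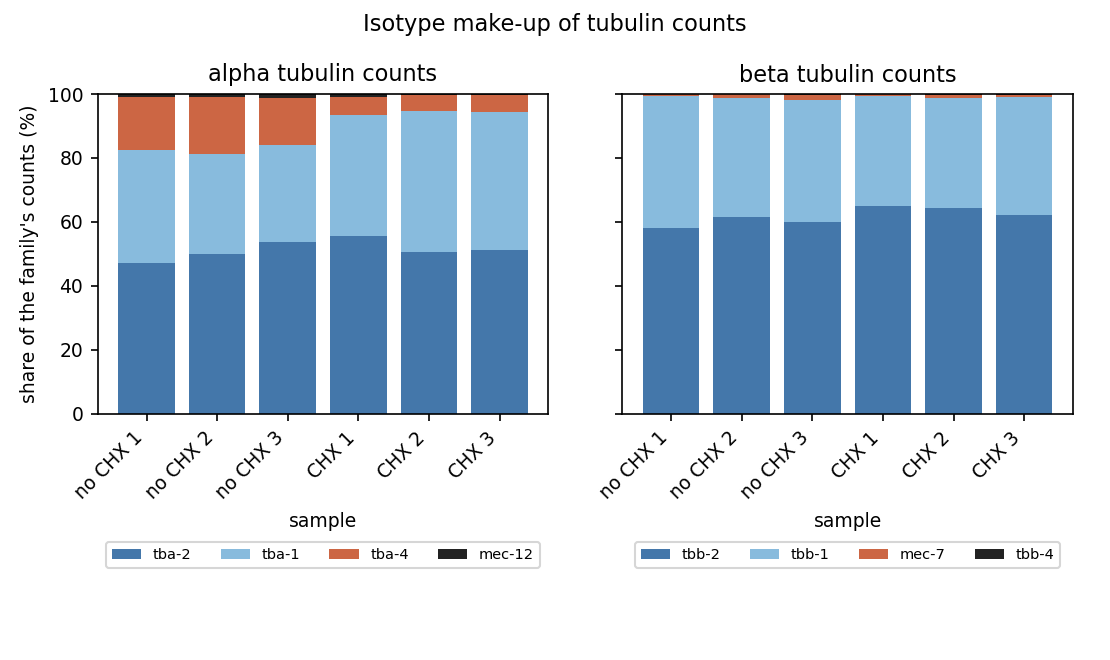
Share of each isotype (%) among the counts of the 4 alpha genes (left) and the 4 beta genes (right) in each of the 6 samples. The orange part on the left, tba-4, is between 14.8% and 17.7% in the samples without CHX and between 4.91% and 5.65% in those with CHX, while tbb-2 on the right is between 58.0% and 61.5% without CHX and between 62.2% and 64.9% with it.

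Levels can be compared between genes per length, since coding lengths were between 1323 bases (mec-7) and 1362 bases (tba-1). In CPM per kilobase of coding sequence, the order without CHX was tba-2 (956 ± 76.7), tbb-2 (941 ± 74.6), tbb-1 (618 ± 96.3), tba-1 (607 ± 38.5), tba-4 (312 ± 28.9), tbg-1 (38.1 ± 16.9), mec-12 (19.5 ± 4.57), mec-7 (15.9 ± 8.31) and tbb-4 (2.59 ± 2.66). Overlapping neighbours were tba-2 with tbb-2, tbb-1 with tba-1, tbg-1 with mec-12 and mec-12 with mec-7. The 2 highest isotypes were thus an alpha and a beta gene at like level, and the next pair again an alpha and a beta gene.

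With CHX the same per-length levels were 926 ± 7.19 for tba-2, 849 ± 32.4 for tbb-2, 730 ± 99.1 for tba-1 and 469 ± 24.2 for tbb-1. The order of tba-1 and tbb-1 was exchanged, and these 4 no longer overlapped with their neighbours. The level of tba-4 was 92.9 ± 2.13, that of tbg-1 39.7 ± 26.0, and mec-7 (10.9 ± 2.48) and mec-12 (8.22 ± 4.62) overlapped, with tbb-4 last at 2.50 ± 2.17. The drop of tba-4 left it at 2.34 times tbg-1, against 8.20 times without CHX.

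Most of the 7 other tubulin genes had few counts. The beta gene ben-1, known as the target of benzimidazole drugs, was the only 1 of the 7 with enough counts to test, at 67.3 ± 13.2 and 66.0 ± 4.11 CPM (log2 fold change -0.02, SE 0.35, 95% interval -0.74 to 0.69, edgeR adjusted p 0.966). The alpha gene tba-7 had 22 summed counts without CHX and 26 with it (ratio 0.912, exact 95% interval 0.497 to 1.69). The alpha gene tba-9 had 6, all of them in no CHX replicate 2, and 4. The sums were 0 and 2 for tba-5, 1 and 0 for tba-6 and 0 and 3 for tbb-6, and tba-8 had no count in any sample, which allows up to 3 counts per library.

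Genes that act on tubulin moved in part, and upward more often than downward. In 5 lists of such genes plus the other tubulins, 69 were tested. Of these, 10 were higher and 2 lower, or 14.5% and 2.90%, beside 10.3% and 14.9% of all tested genes. Their median log2 fold change was 0.27 beside 0.02 for all tested genes. DESeq2 called 4 higher and 2 lower, or 5.06% and 2.53%, beside 4.90% and 7.91% of all its genes. Without CHX replicate 2, edgeR's test called 5 higher and 2 lower, or 6.76% and 2.70%, beside 6.94% and 10.8% of all tested genes. In both, the share called higher was thus close to that of all genes.

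Of all tested genes, 10.3% were higher and 14.9% lower, shares that stand beside each list below. Of 13 tested centrosome and gamma tubulin complex genes, 2 were higher and 0 lower (median 0.32). They were sas-6, of the centriole cartwheel, at 39.1 ± 21.2 and 88.8 ± 27.9 CPM (2.29-fold, edgeR adjusted p 0.0286), and spd-2, which builds the pericentriolar material, at 129 ± 49.01 and 209 ± 34.6 CPM (1.63-fold, edgeR adjusted p 0.0482). The most abundant, zyg-9 and spd-5, had log2 fold changes of 0.32 (SE 0.16) and 0.14 (SE 0.20) without a call, although zyg-9 passed as higher with library totals (0.48, edgeR adjusted p 0.0271). Both centrosome calls are thin. DESeq2 did not make them (adjusted p 0.106 for sas-6 and 0.137 for spd-2). That of sas-6 was lost without no CHX replicate 1 or 2 or CHX replicate 1 or 3 (edgeR adjusted p 0.06 to 0.179), and that of spd-2 without no CHX replicate 2 or any of the CHX replicates (0.0502 to 0.255). Of 20 tested motor genes, 2 were higher, near the 10.3% of all tested genes, and 0 lower (median 0.26). The central spindle kinesin gene zen-4 rose 2.63-fold and the chromosome-associated kinesin gene klp-19 1.52-fold. The dynein heavy chain gene dhc-1, the most abundant, stood at 1902 ± 74.2 and 1707 ± 68.6 CPM without a call.

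Of 16 tested microtubule-binding protein genes, 5 were higher and 1 was lower (median 0.43), beside 10.3% and 14.9% of all tested genes. The Aurora A activator gene tpxl-1 rose from 118.6 ± 28.4 to 254 ± 43.6 CPM (2.14-fold, edgeR adjusted p 0.00115). The katanin gene mei-1, for the severing enzyme of the oocyte's meiotic spindle, rose from 123 ± 24.9 to 243 ± 22.6 CPM (1.97-fold, edgeR adjusted p 0.00253). The other 3 that rose were mei-2, spas-1 and noca-1, and the 1 that fell was maph-1.1, all 4 named after their values were seen. The call of mei-2 was lost without replicate 2 of either group (edgeR adjusted p 0.0664 and 0.0837), that of spas-1 without no CHX replicate 1 or 3 or CHX replicate 2 (0.0508 to 0.0703), and that of noca-1 without replicate 1 or 2 of either group (0.0897 to 0.135). DESeq2 called none of these 3 (adjusted p 0.0536, 0.0582 and 0.0949). The abundant cls-2 and klp-7 were at log2 fold changes of -0.49 (SE 0.22) and -0.25 (SE 0.23) without a call, although cls-2 passed as lower without no CHX replicate 3 (-0.70, edgeR adjusted p 0.0248).

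The tubulin folding genes (chaperonin, prefoldin and cofactors) had 15 tested members with 0 higher and 1 lower (median -0.06). Of all tested genes, 10.3% were higher and 14.9% lower. The prefoldin gene pfd-1 fell from 258 ± 92.0 to 115.9 ± 20.5 CPM (2.21-fold, edgeR adjusted p 0.00151). The chaperonin genes cct-5 and cct-6 had log2 fold changes of -0.24 (SE 0.16) and -0.36 (SE 0.17) without a call, and cct-6 passed as lower without no CHX replicate 2 (-0.47, edgeR adjusted p 0.0441). Of 4 tested tubulin modification genes, 1 rose (median 0.56): ttll-5, of the tubulin tyrosine ligase-like family, from 74.2 ± 49.01 to 149 ± 41.1 CPM (2.04-fold, edgeR adjusted p 0.0287). That call was lost without no CHX replicate 1 or 2 or CHX replicate 2 or 3 (edgeR adjusted p 0.0648 to 0.135) and with DESeq2 (0.0952). The next in level, ttll-4, was at 0.34 (SE 0.30) without a call.

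Marker lists of cell types moved with the groups as well, and stand beside 10.3% higher and 14.9% lower of all tested genes. Of 26 germline markers 15 were higher and 1 was lower (median log2 fold change 0.80). Among those higher were the eggshell and oocyte genes cpg-1 (3.46-fold), cpg-2 (2.70-fold) and cbd-1 (2.42-fold). The 1 lower was glh-1, from 1072 ± 65.9 to 729 ± 29.5 CPM (1.47-fold, edgeR adjusted p 0.00290). Of the 10 without a call, fbf-1 (-0.37), fbf-2 (-0.37), him-3 (-0.46) and syp-2 (-0.60) had negative log2 fold changes and the others positive ones. These 4 genes and glh-1 were named after their values were seen. The summed level of the germline list was 8621 to 9897 CPM without CHX and 17288 to 18519 CPM with it. Of that sum, cpg-1, cpg-2 and cbd-1 gave means of 795, 1001 and 1036 CPM without CHX and 2749, 2703 and 2505 CPM with it. Sperm markers had 8 of 11 tested members lower and 0 higher (median -0.92), with gsp-3, sss-1 and ssq-2 lower by 2.51-fold, 2.21-fold and 1.90-fold, and sums of 1918 to 2149 and 804 to 1188 CPM. At 0 in every sample were 3 of the 26 sperm markers, ssp-11, msd-1 and msd-3.

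Body wall muscle markers had 13 of 15 lower and 0 higher (median -0.62), beside 14.9% and 10.3% of all tested genes. Among them myo-3, act-4 and unc-54 were lower by 2.32-fold, 1.76-fold and 1.68-fold. The list summed to 13550 to 18623 CPM without CHX and 9884 to 10591 CPM with it. The part of these lists in the fall of tba-4 was not tested. For the neuronal isotypes, 0 of 8 tested genes of the neuronal list passed (median -0.26, edgeR adjusted p 0.633 for snap-29 and 0.344 for egl-3, the most abundant). How specific the genes of that list are to neurons was not checked. The sum of all 25 genes of the neuronal list was 629 to 888 CPM without CHX and 630 to 715 CPM with it, and overlapped.

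Sums for 12 touch neuron genes were 64.3 to 85.2 and 77.0 to 83.6 CPM, and overlapped. Those for 27 cilium genes were 26.2 to 61.2 and 62.7 to 81.8 CPM, with che-2, osm-5, ift-20, bbs-2, bbs-9, xbx-1 and mks-5 at 0. The cilium sums did not overlap, as for the CPM of 39.7% of single tested genes. Their nearest samples, at 61.2 and 62.7 CPM, lay closer together than the level of the count floor. Of this sum, daf-19 gave a mean of 18.6 CPM without CHX and 34.5 CPM with it. No shift of cilium genes is read from these low counts. The single tested touch neuron gene, mec-15, had a log2 fold change of 0.48 (SE 0.48, edgeR adjusted p 0.498) and the single tested cilium gene, daf-19, 0.88 (SE 0.55, edgeR adjusted p 0.249).

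**Figure D4:**
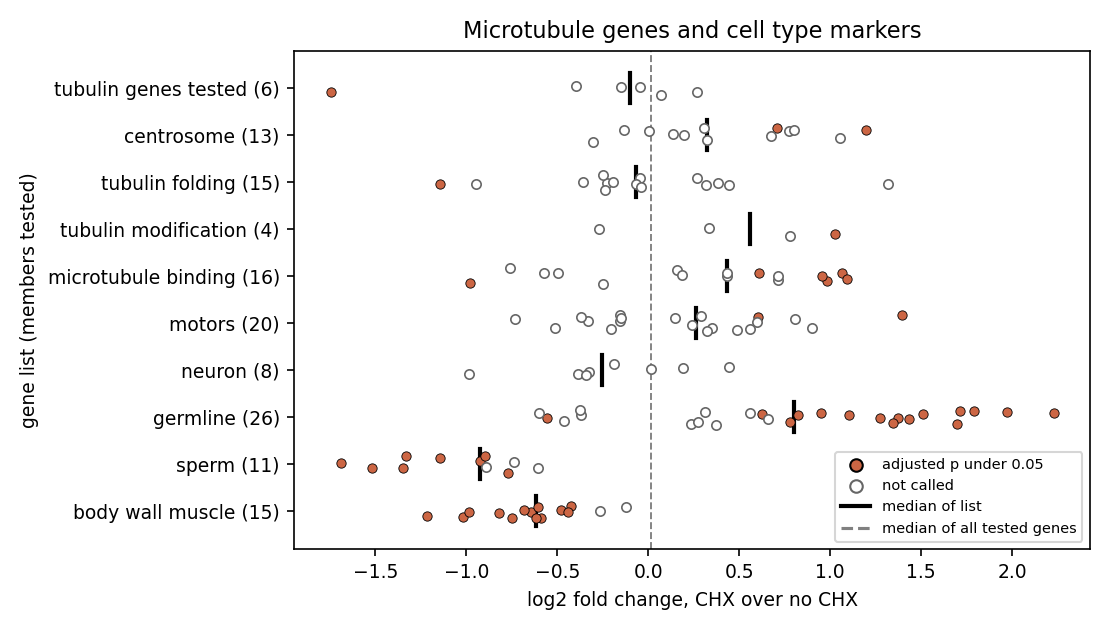
Fitted log2 fold change (CHX over no CHX) of the tested members of each gene list, 1 point per gene, filled where the threshold was passed; black bars are list medians and the dashed line is the median of all tested genes, 0.02. Apart from tba-4, the tubulin genes lie between -0.39 (tbb-1) and 0.27 (tba-1). Germline markers lie mostly to the right and sperm and muscle markers to the left.

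The genes whose pattern over the 6 samples was most like that of the 2 most abundant isotypes were taken by Euclidean distance between log2(CPM + 1) profiles, each centred on its own mean. For tba-2 they were ztf-7 (0.0947), plp-1 (0.116) and the chaperonin gene cct-4 (0.146), where the median distance over 5640 genes was 1.14. For tbb-2 they were ZK686.3 (0.132), eel-1 (0.139) and the chaperonin gene cct-1 (0.148), with a median distance of 1.16. Each of these 6 genes was without a call in the fit of all samples, which follows from their choice by likeness to genes without a call.

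For tba-4, a comparison added after its values were seen, the nearest profiles were those of T16G12.1 (0.292), atic-1 (0.313) and acdh-1 (0.325), with a median distance of 2.36. All 3 fell on CHX, which follows from their choice by likeness to tba-4 over the same samples. The level of T16G12.1 went from 394 ± 50.4 to 102 ± 6.82 CPM. The purine synthesis gene atic-1 went from 141.8 ± 9.51 to 43.9 ± 6.85 CPM and the acyl-CoA dehydrogenase gene acdh-1 from 989 ± 69.8 to 319 ± 38.5 CPM.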

How the data were processed

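Per the file headers, the deposited table holds unnormalized read counts for the coding part of 1 transcript per protein-coding gene, named with WBcel235 coordinates. WBcel235 and DESeq2 are named in the submitters' processing notes. Per the labels' protocols, Trizol extraction was followed by RNase H removal of ribosomal RNA and a SMARTER kit. No source used here gives the aligner, the counter, the use of strand or the handling of duplicates. No molecular identifiers are named, so reads are not independent molecules.

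The analysis used edgeR 4.0.16 in R 4.3.3: filterByExpr (minimum count 10, minimum total 15), TMM factors, robust quasi-likelihood fit of treatment, and Benjamini-Hochberg adjustment over 5641 genes holding 94.1% of counts. The SE is the absolute log2 fold change over the square root of F, and intervals use its degrees of freedom. The fit was also run on simulated counts with known changes, where it missed many of the smaller ones. A gene without a call may therefore still have changed. The common biological coefficient of variation was 19.0%. DESeq2 1.42.0 was an alternative, among 12 in all. Permutation tests used SciPy 1.17.1 and figures matplotlib 3.10.9. Ratios used a pseudocount of 0.5. All replicate pairs differed beyond sampling noise (chi-square over degrees of freedom at least 2.23).

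The Ensembl annotation of that build gave coding lengths; for tba-2, tbb-1 and tbb-2, from transcripts with the same name stem. Of 238 list genes 4 were not matched. No sequences were used here. The tubulin genes and lists were chosen with earlier results of these data known. Named were all 9 genes, the other tubulins and, per list, the 2 most abundant genes and the 2 called ones of smallest p.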

Additional observations from a re-analysis of the deposited data

How the results depend on the processing

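The fall of tba-4 passed under all 12 alternatives and in the fit of summed copies, with log2 fold changes of -1.82 to -1.59. The number of tubulin genes called was 2 of 6 (33.3%, 1 of them higher) with library totals alone, beside 25.8% of all tested genes. With 1 sample left out it ranged from 1 to 2, all lower. It was 2 only without no CHX replicate 2, where 19.9% of all tested genes were called. For the other microtubule genes, library totals gave 16 higher, or 23.2% beside 15.1% of all tested genes. Among them DESeq2 gave 6 calls (4 higher), and leaving out 1 sample gave 7 to 14 calls, 5 to 10 higher and 2 to 4 lower. Of all genes DESeq2 called 904, 346 higher and 558 lower, and leaving out 1 sample gave 984 to 1331, 383 to 544 higher and 601 to 804 lower. Signs turned for tba-2 with library totals (0.11) and no filter (0.0112), for tbb-2 with library totals (0.00970), and for tbg-1 with the replicate block (-0.0602) and over samples left out (-0.26 to 0.54), in each case without a call. Genes near 0 outside the 9 also turned sign without a call: ben-1 with library totals (0.133), no filter (0.0326) and DESeq2 (0.00484), cct-4 (0.0916) and dhc-1 (0.00244) with library totals, ztf-7 with library totals (0.138), upper-quartile factors (0.00269), no filter (0.0387) and DESeq2 (0.0139), and with 1 sample left out ben-1 (-0.16 to 0.11), cct-4 (-0.13 to 0.0335), plp-1 (-0.0339 to 0.0320), snap-29 (-0.0255 to 0.43), spd-5 (-0.0266 to 0.33) and ztf-7 (-0.0638 to 0.0462). With library totals the median of all tested genes moved up by 0.16, and relative to it tba-2 and tbb-2 kept their sign. The cause of the other turns was not tested.

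Replicate numbers did not pair the samples: same-number samples had correlations of deviations of -0.05, -0.03 and -0.01. With the replicate block, 1225 of all tested genes (21.7%) and 1 of 6 tested tubulin genes (16.7%) were called. In that fit spd-2 (edgeR adjusted p 0.0677) and noca-1 (0.0594) did not pass. Low counts limit tbg-1 and the 3 neuronal isotypes, and tbg-1 also varied widely between CHX replicates (29, 5 and 29 counts).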
